A study of Mus musculus with 15 samples.

Results

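The genes described here encode 5 chemokine receptors that place B cells in and around the germinal centre: Cxcr4, Cxcr5, Ccr6, Ccr7 and Cxcr3. They were chosen by symbol among the 19938 genes measured, and each was read by 1 probe set of its own. The cells were female SwHEL B cells, whose knocked-in antigen receptor binds hen egg lysozyme and which carry the congenic marker CD45.1. They had been transferred into C57BL/6J mice (CD45.2) that were immunized with sheep red blood cells bearing HEL3x, a mutant of that lysozyme. At day 10 the donor-derived germinal centre B cells of the spleen (IgG1+, CD38 low) were sorted by zone and by affinity. Light zone cells were taken as CD86 high and CXCR4 low, dark zone cells as CXCR4 high and CD86 low. The groups were high-affinity light zone cells (Lzhi, 3 arrays), low-affinity light zone cells (Lzlo, 4 arrays), high-affinity dark zone cells (Dzhi, 4 arrays) and low-affinity dark zone cells (Dzlo, 4 arrays). All 4 groups share the donor receptor, the antigen and the day, and the cells come from 1 engineered receptor system rather than from a mixed repertoire.

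Chemokine receptors are receptors with several membrane-spanning helices that couple to inhibitory G proteins and steer cells along gradients of chemokines. CXCR4 responds to CXCL12, which is made in the dark zone, and holds germinal centre cells there. CXCR5 responds to CXCL13, which is made by follicular dendritic cells, and draws B cells into follicles and towards the light zone. CCR7 responds to CCL19 and CCL21 of the T cell zone, CCR6 to CCL20, and CXCR3 to the interferon-induced chemokines CXCL9, CXCL10 and CXCL11. In mice CCR6 is carried by naive and memory B cells and is low on most germinal centre B cells.

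The values are the authors' log2 RMA values, so a difference of 1 is a doubling, and the medians of the arrays lay between 5.565 and 5.737. Each comparison was tested with limma over all 19938 genes in 1 fit of the 4 groups, with p-values adjusted by the Benjamini-Hochberg method and a threshold of 0.05. Errors after ± are standard errors of that fit for differences and SD for group means. The arrays carry date-like experiment codes, read here as experiments A to D. Experiment B is written in 2 ways, 1 for dark zone and 1 for light zone arrays, and no Lzhi array came from experiment D. The labels do not say whether the samples came from separate mice, and the p-values below therefore speak only to the spread among these arrays. As a check of the sort, Cd86 averaged 10.89 in Lzhi and 9.56 in Dzhi arrays, and 10.96 in Lzlo and 10.20 in Dzlo arrays. The 12 measured markers of germinal centre B cells had mean values between 9.94 and 10.30 on every array. Markers of other cells were high on both low-affinity arrays of experiment D, Lzlo replicate 3 above all and Dzlo replicate 3 to a lesser degree. On Lzlo replicate 3, 14 of 14 neutrophil, 11 of 16 T cell, 7 of 10 NK cell and 7 of 12 myeloid markers had their highest value of the 15 arrays. On Dzlo replicate 3 the neutrophil markers averaged 7.53, the second highest mean. RMA gives no value of 0 and detection calls were not part of the values, which leaves no way to call a marker absent.

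No receptor passed between zones or between affinities in this fit, which leaves the experiment out. Arrays of the same experiment code deviated together (mean correlation 0.288 over 21 pairs), and with the code as a block Ccr6 passed between zones (adjusted p = 0.0161 in limma) and among low-affinity cells (adjusted p = 0.0104 in limma), as did the sort marker Cxcr4 between zones. Among high-affinity cells Ccr6 did not pass with that block (0.18 ± 0.12). Ccr6 was the member with the smallest p-value for zone over both affinities and for zone among low-affinity cells. The same held for affinity in the light zone, and the high Ccr6 values were those of Lzlo arrays. Cxcr5 values were higher in light zone cells of every experiment, with a wide spread between experiments. Cxcr4 was lower in light zone cells, as it was sorted to be. Ccr7 and Cxcr3 had intervals that spanned 0 in every comparison.

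**Figure D1:**
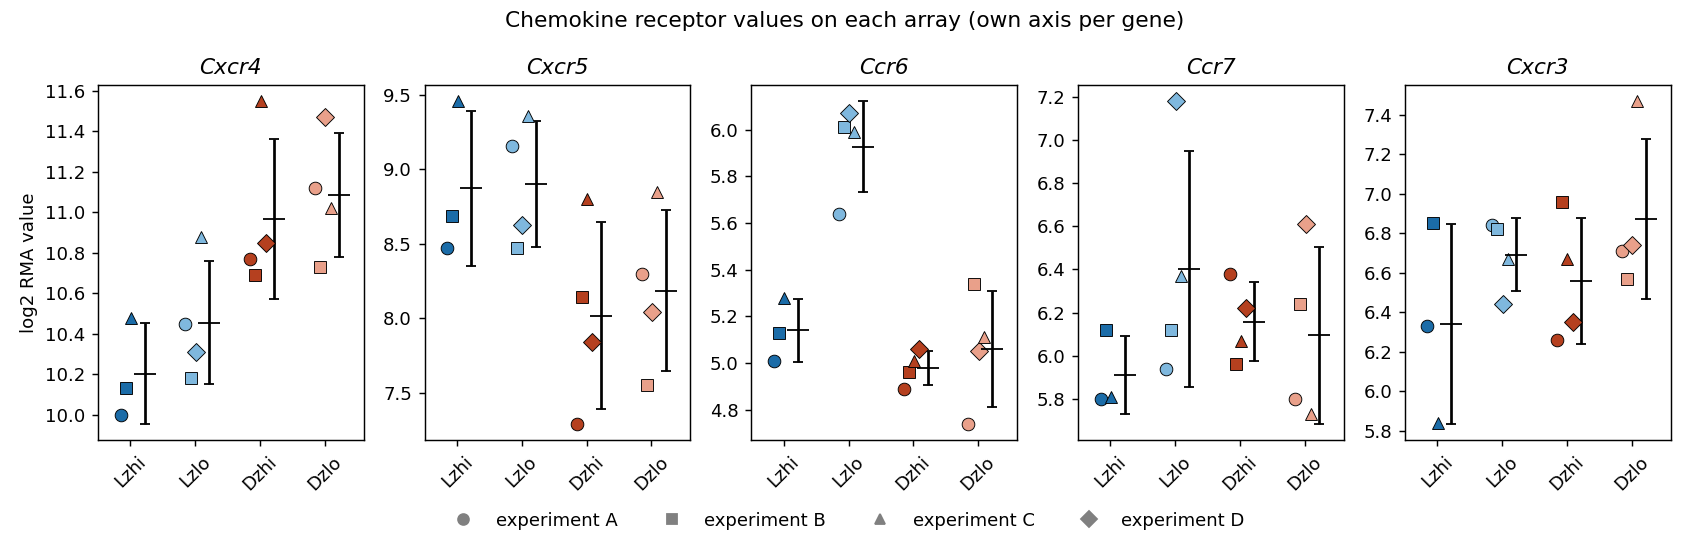
Log2 RMA values of the 5 receptors on each array, with 1 panel and 1 axis per gene, points for arrays (shape gives the experiment) and bars for the group mean and SD. The 4 Lzlo arrays sit apart for Ccr6, at 5.64 to 6.07, and 1 Lzlo array stands above the others for Ccr7, at 7.18.

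Cxcr4, the receptor of dark zone retention, was a sort marker, so its difference between zones is a description. Among high-affinity cells it had 10.00, 10.13 and 10.48 in Lzhi arrays, against 10.77, 10.69, 11.55 and 10.85 in Dzhi arrays. Among low-affinity cells it had 10.45, 10.18, 10.31 and 10.88 in Lzlo arrays, against 11.12, 10.73, 11.47 and 11.02 in Dzlo arrays. The Lzhi and Dzhi arrays did not overlap, as for 3.69% of all genes, while 1 Lzlo array lay above the lowest Dzlo array. The zone difference was -0.76 ± 0.23 for Lzhi minus Dzhi and -0.63 ± 0.21 for Lzlo minus Dzlo. Within experiments it was -0.77, -0.56 and -1.07 among high-affinity cells of A to C. Among low-affinity cells it was -0.67, -0.55, -0.14 and -1.15 in A to D. The transcript thus followed the surface sort in 7 of 7 pairs, by amounts that ranged from -1.15 to -0.14. Affinity, which CXCR4 did not define, gave -0.25 ± 0.23 in the light zone and -0.12 ± 0.21 in the dark zone. Neither passed (adjusted p = 1.0 in limma for each), and the intervals ran from -0.75 to 0.25 and from -0.58 to 0.34. Group means ran Dzlo, Dzhi, Lzlo, Lzhi from high to low, and the ranges of each pair of neighbours overlapped.

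Cxcr5, the follicle-homing receptor, was higher on light zone arrays on average. Its values were 8.47, 8.69 and 9.46 in Lzhi arrays, against 7.29, 8.14, 8.80 and 7.84 in Dzhi arrays. In low-affinity cells they were 9.16, 8.47, 8.63 and 9.36 in Lzlo arrays, against 8.30, 7.55, 8.04 and 8.85 in Dzlo arrays. The ranges overlapped, and in each group the array of experiment C was the highest. Over both affinities the means were 8.89 ± 0.42 in light zone (n = 7) and 8.10 ± 0.55 in dark zone arrays (n = 8). The difference was 0.79 ± 0.25, a 1.73-fold difference, and did not pass (adjusted p = 0.572 in limma), with an unadjusted p of 0.00779 at rank 270 of the 19938. At an unadjusted p under 0.05, 4.38% of all genes passed in this comparison. Within experiments A to C the high-affinity difference was 1.18, 0.55 and 0.66. Within A to D the low-affinity difference was 0.86, 0.93, 0.51 and 0.58. All 7 pairs were thus above 0, of which 2 join the forms of code B. Pairs of the same experiment are not independent, and the share of all genes with 7 such pairs was not counted. With the experiment code as a block the standard error was 0.17 and the difference 0.75 (adjusted p = 0.102 in limma). Over all 30 alternatives the adjusted p lay between 0.102 and 1.0. Affinity gave -0.03 ± 0.37 in the light zone and -0.17 ± 0.34 in the dark zone (adjusted p = 1.0 in limma for each). From high to low the means ran Lzlo, Lzhi, Dzlo, Dzhi, with overlap between each pair of neighbours.

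Ccr6, the CCL20 receptor, was highest in low-affinity light zone cells. It had 5.01, 5.13 and 5.28 in Lzhi arrays and 5.64, 6.01, 6.07 and 5.99 in Lzlo arrays. In the dark zone it had 4.89, 4.96, 5.01 and 5.06 in Dzhi arrays and 4.74, 5.34, 5.05 and 5.11 in Dzlo arrays. Every Lzlo array lay above every array of the other groups, while Lzhi, Dzhi and Dzlo overlapped. The share of all genes with Lzlo apart from all other groups was not counted. Lzlo did not overlap with Dzlo for 1.91% of all genes, and with Lzhi for 4.55%. All values outside Lzlo were below the medians of the arrays, in the range where RMA compresses differences.

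The sequences before the 2 annotated starts of Ccr6 are shown because the gene carries the clearest difference here, with that of Cxcr4, the sorted gene, for contrast. They are the 250 bases upstream of each start in RefSeq (GRCm38.p6), in which 3 of the 5 receptors matched an entry (Cxcr4, Ccr6 and Cxcr3). Capitals mark matches to 7 motifs searched on both strands, chosen with these results known: the octamer ATGCAAAT, the kappaB consensus, the NRF1 element, the TATA box TATAAA, the GC box CCGCCC, the FOXO element TGTTTAC and the AP-1 element TGANTCA.
Ccr6 first start, plus strand, chr17:8235793-8236042: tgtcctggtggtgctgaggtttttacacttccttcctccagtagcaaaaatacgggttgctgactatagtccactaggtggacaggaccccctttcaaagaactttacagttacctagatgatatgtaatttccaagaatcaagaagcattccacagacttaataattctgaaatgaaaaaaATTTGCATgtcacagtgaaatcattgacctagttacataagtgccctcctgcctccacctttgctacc
Ccr6 second start, plus strand, chr17:8242276-8242525: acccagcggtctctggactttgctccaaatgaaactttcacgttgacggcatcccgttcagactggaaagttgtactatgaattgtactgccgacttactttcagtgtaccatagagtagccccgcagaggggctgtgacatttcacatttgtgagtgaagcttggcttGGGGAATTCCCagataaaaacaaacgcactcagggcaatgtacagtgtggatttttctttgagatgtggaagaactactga
Cxcr4, minus strand, chr1:128592300-128592549: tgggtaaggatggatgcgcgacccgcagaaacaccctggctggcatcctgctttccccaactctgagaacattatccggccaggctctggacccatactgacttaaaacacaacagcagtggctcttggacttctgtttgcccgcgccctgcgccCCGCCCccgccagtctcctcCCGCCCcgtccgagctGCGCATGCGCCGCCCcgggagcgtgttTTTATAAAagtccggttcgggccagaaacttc
The first Ccr6 window holds an octamer, the element bound by OCT factors in B cell genes, 68 to 61 bases before the start, as do 1.6% of 32817 such windows. The second holds a pair of overlapping kappaB matches, within 81 to 71 bases before its start. The kappaB consensus was found in 7.25% of windows. The Cxcr4 window holds none of these but an NRF1 element 59 to 50 bases before the start (0.777% of windows), 3 GC boxes (32.7%) and a TATA box on each strand (12.4%), of which the GC box nearest the start overlaps the NRF1 element and the TATA boxes overlap each other. The Cxcr3 window, which is not printed, held 0 matches to the 7 motifs. A match is a description of the letters and says nothing about binding in these cells.

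Between zones, the Ccr6 difference was 0.52 ± 0.10 over both affinities, 1.43-fold, at rank 38 of 19938 p-values. It did not pass (adjusted p = 0.0678 in limma), where 0.155% of genes did. Among low-affinity cells the means were 5.93 ± 0.20 in Lzlo arrays and 5.06 ± 0.25 in Dzlo arrays (SD, n = 4 each). That difference was 0.87 ± 0.13, 1.83-fold, at rank 4 (adjusted p = 0.0554 in limma), where 0.01% of genes passed and 3.53% had an unadjusted p under 0.05. The ranges did not overlap, as for 1.91% of all genes. Within experiments A to D it was 0.90, 0.67, 0.88 and 1.02. Among high-affinity cells the means were 5.14 ± 0.13 in Lzhi arrays (n = 3) and 4.98 ± 0.07 in Dzhi arrays (n = 4). Their difference was 0.16 ± 0.14, or 0.09 without Lzhi replicate 4, with values up to 0.23 without other single arrays. Its interval ran from -0.15 to 0.47, and in that comparison 0.015% of genes passed and 2.8% had an unadjusted p under 0.05. Within experiments A to C it was 0.12, 0.18 and 0.26, so that all 7 zone pairs were above 0. The share of all genes with 7 such pairs was not counted, and pairs of the same experiment are not independent. With the experiment code as a block, Ccr6 was higher in light zone cells on average over both affinities (adjusted p = 0.0161 in limma, 0.53 ± 0.08). It was also higher there among low-affinity cells (adjusted p = 0.0104 in limma). With that block 0.451% and 0.15% of genes passed in these comparisons. Among high-affinity cells the block gave 0.18 ± 0.12 for Ccr6, which did not pass (unadjusted p = 0.146 in limma). Experiment B holds its zones under different code forms, which the block merges. The adjusted p lay between 0.0154 and 0.6 over 30 alternatives for both affinities, of which 9 passed, and between 0.00988 and 1.0 over 31 for low-affinity cells, of which 10 passed. With code B kept as written the values were 0.0646 and 0.0394. Leaving out Lzlo replicate 1 gave 0.0387 and 0.0403, and leaving out Dzlo replicate 2 gave 0.045 over both affinities.

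**Figure D2:**
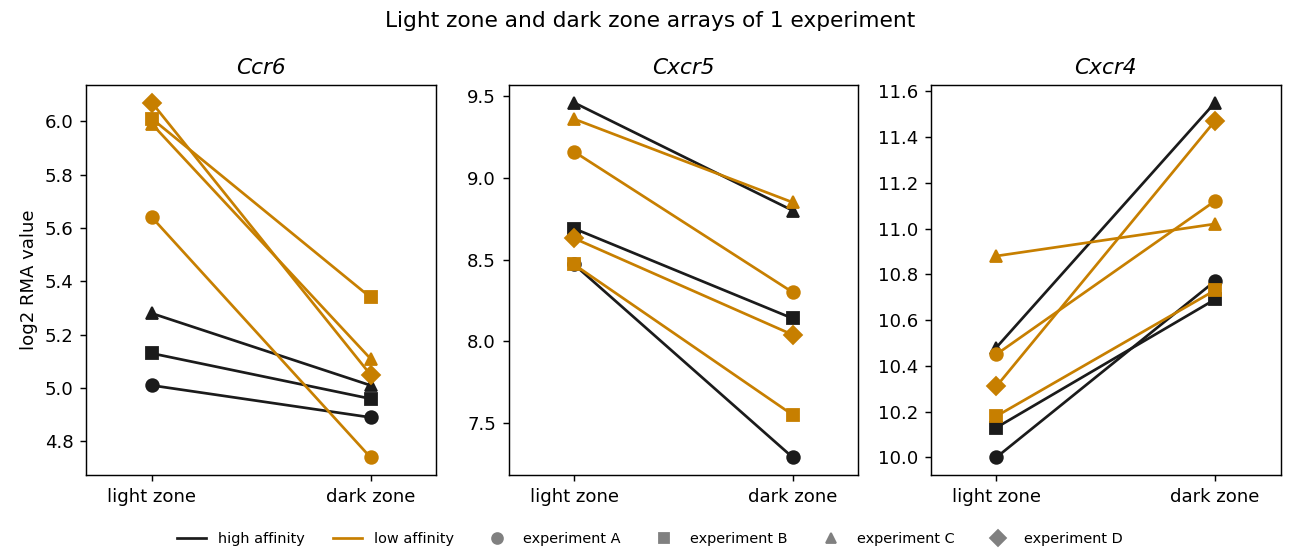
Log2 RMA values of Ccr6, Cxcr5 and Cxcr4 in light zone and dark zone arrays of the same experiment, joined by lines for high-affinity (black) and low-affinity (orange) cells. All 7 lines run down to the dark zone for Ccr6 and Cxcr5, and up for the sort marker Cxcr4, and the low-affinity lines of Ccr6 are the steep ones, at 0.67 to 1.02. How many of all genes have 7 lines in 1 direction was not counted.

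By affinity, Ccr6 was lower in Lzhi than in Lzlo arrays. The difference was -0.79 ± 0.14, 1.73-fold, with an interval from -1.10 to -0.48. It had the second smallest p-value of the 19938 (rank 2, unadjusted p = 8.57e-05) and did not pass (adjusted p = 0.751 in limma). No gene passed in this comparison, so the background share was 0.0%, and 4.0% had an unadjusted p under 0.05. The ranges did not overlap, as for 4.55% of genes. Within experiments A, B and C the difference was -0.63, -0.88 and -0.72. It was between -0.89 and -0.72 over 31 alternatives, with adjusted p between 0.196 and 1.0, and -0.74 without Lzlo replicate 3. In the dark zone the difference was -0.08 ± 0.13, with an interval from -0.37 to 0.21 and within-experiment values of 0.16, -0.39, -0.10 and 0.01. Over both zones Ccr6 had -0.44 ± 0.10, at rank 11 (adjusted p = 0.666 in limma). The test of whether the affinity difference differed between the 2 zones gave -0.71 ± 0.20 for Ccr6, at rank 5 (unadjusted p = 0.00292). That did not pass either (adjusted p = 1.0 in limma, where 0.0% of genes passed and 1.33% had an unadjusted p under 0.05). In order, the means ran Lzlo, Lzhi, Dzlo, Dzhi, and Lzlo was the group without overlap with its neighbour.

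Naive and memory B cells carry CCR6, and the mean of their markers was highest on the same arrays as Ccr6. The 11 measured of 14 markers, such as the IgE receptor gene Fcer2a and the adhesion gene Pecam1, had mean values of 7.08 to 7.18 in Lzhi and 7.47 to 7.82 in Lzlo arrays. In dark zone arrays the mean values were 6.83 to 7.22 in Dzhi and 7.19 to 7.25 in Dzlo. Of the 11, 10 were lower in Lzhi than in Lzlo arrays, with a median difference of -0.57, or -0.37 without Lzlo replicate 3. Over all genes the median was -0.0, and 49.9% lay above 0. Between Lzlo and Dzlo arrays 10 of 11 lay above 0, with a median of 0.36, beside 48.6% of all genes above 0. Of the 12 germinal centre markers 7 were lower in Lzhi than in Lzlo arrays (median -0.03), or 11 without Lzlo replicate 3 (median -0.17). Without that array their mean values were 9.94 to 10.08 in Lzhi and 10.17 to 10.25 in Lzlo arrays, so that both marker lists were higher in Lzlo. The sort kept IgG1+, CD38 low cells, a gate set to leave out naive cells, which lack IgG1, and mouse memory cells, which are CD38 high. In bulk samples a smaller number of such cells and less RNA per cell cannot be told apart, and the part of these cells in the Ccr6 difference was not tested. Markers of T cells, neutrophils and myeloid cells ranged from 4.96 to 5.72, 5.13 to 6.22 and 5.20 to 5.75 in Lzlo arrays other than replicate 3. In Lzhi arrays they ranged from 4.96 to 5.20, 5.03 to 6.28 and 5.12 to 5.45.

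Ccr7, the receptor for the T cell zone chemokines, showed no shared direction. It had 5.80, 6.12 and 5.81 in Lzhi arrays and 5.94, 6.12, 7.18 and 6.37 in Lzlo arrays. In the dark zone it had 6.38, 5.96, 6.07 and 6.22 in Dzhi arrays and 5.80, 6.24, 6.61 and 5.73 in Dzlo arrays. The 2 highest values were those of the low-affinity arrays of experiment D, Lzlo replicate 3 and Dzlo replicate 3, and all groups overlapped. The zone difference over both affinities was 0.03 ± 0.18, with an interval from -0.36 to 0.42. Over 30 alternatives its value ran from -0.10 to 0.14, with 7 below 0. Affinity in the light zone gave -0.50 ± 0.27 (unadjusted p = 0.0878, adjusted p = 1.0 in limma), or -0.24 without Lzlo replicate 3. Within experiments it was -0.15, 0.00 and -0.56, where 0.00 comes from the same deposited value on both arrays of experiment B. In the dark zone affinity gave 0.06 ± 0.25, with 2 of 4 pairs on each side of 0. Neutrophil markers averaged 8.84 on Lzlo replicate 3 and 7.53 on Dzlo replicate 3, the arrays with high Ccr7, and between 5.03 and 6.38 on the others. T cell markers averaged 6.49 and 5.59 on Lzlo replicate 3 and Dzlo replicate 3, and myeloid markers 6.48 and 5.89. On Lzlo replicate 4, where Ccr7 was 6.37, T cell markers averaged 5.72. On Dzlo replicate 4, where Ccr7 was 5.73, they averaged 5.37. Myeloid markers averaged 5.75 on Lzlo replicate 4 and 5.32 on Dzlo replicate 4. T cells and some myeloid cells also express Ccr7. The sort kept CD45.1+, CD45.2-, IgG1+ cells, a gate set to leave out recipient cells, and the part of such cells in these values was not tested.

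**Figure D3:**
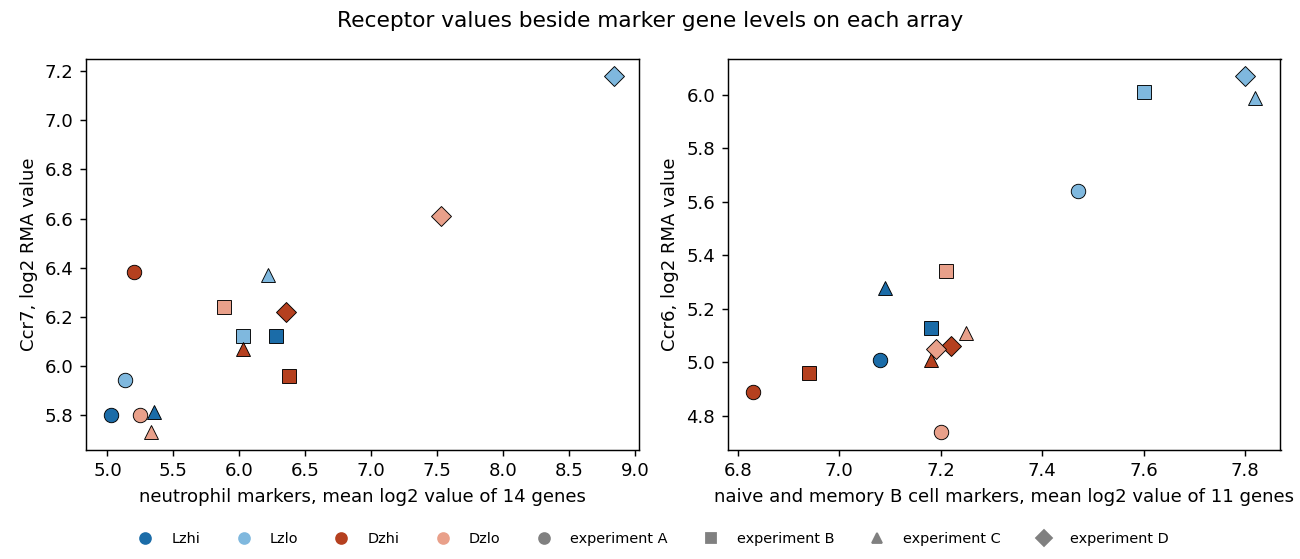
Log2 RMA values of Ccr7 against the mean of 14 neutrophil markers (left) and of Ccr6 against the mean of 11 naive and memory B cell markers (right), 1 point per array, with colour for the group and shape for the experiment. The low-affinity arrays of experiment D stand to the right for the neutrophil markers, at 8.84 and 7.53, and the 4 Lzlo arrays stand to the right for the naive and memory markers, at 7.47 to 7.82.

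Cxcr3, the receptor for interferon-induced chemokines, is known from T cells, NK cells and plasmablasts, and memory B cells can carry it. It had 6.33, 6.85 and 5.84 in Lzhi arrays and 6.84, 6.82, 6.44 and 6.67 in Lzlo arrays. In the dark zone it had 6.26, 6.96, 6.67 and 6.35 in Dzhi arrays and 6.71, 6.57, 6.74 and 7.47 in Dzlo arrays. The lowest and the highest value both came from experiment C, and all groups overlapped. Light zone minus dark zone gave -0.20 ± 0.17, with an interval from -0.57 to 0.18 and 3 of 7 pairs above 0. High minus low affinity gave -0.36 ± 0.26 in the light zone, with -0.11 without Lzhi replicate 4 and -0.61 without Lzhi replicate 2. Dzhi minus Dzlo gave -0.31 ± 0.24, with -0.11 without Dzlo replicate 4 and values down to -0.44 without single arrays. Over both zones affinity gave -0.33 ± 0.17 (unadjusted p = 0.0768, adjusted p = 0.999 in limma), and 5 of 7 pairs were below 0. In that comparison 0.0% of genes passed in limma and 4.3% had an unadjusted p under 0.05. On Lzlo replicate 3, the array with the highest mean of T cell and of NK cell markers, Cxcr3 was the lowest of its group at 6.44. On Dzlo replicate 3, where NK cell markers averaged 5.20, Cxcr3 was 6.74, inside the range of the other Dzlo arrays. The part of such cells in these values was not tested. Plasma cell markers ranged from 6.93 to 7.17 in Lzhi, 6.87 to 7.08 in Lzlo, 7.38 to 7.60 in Dzhi and 6.96 to 7.39 in Dzlo arrays.

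**Figure D4:**
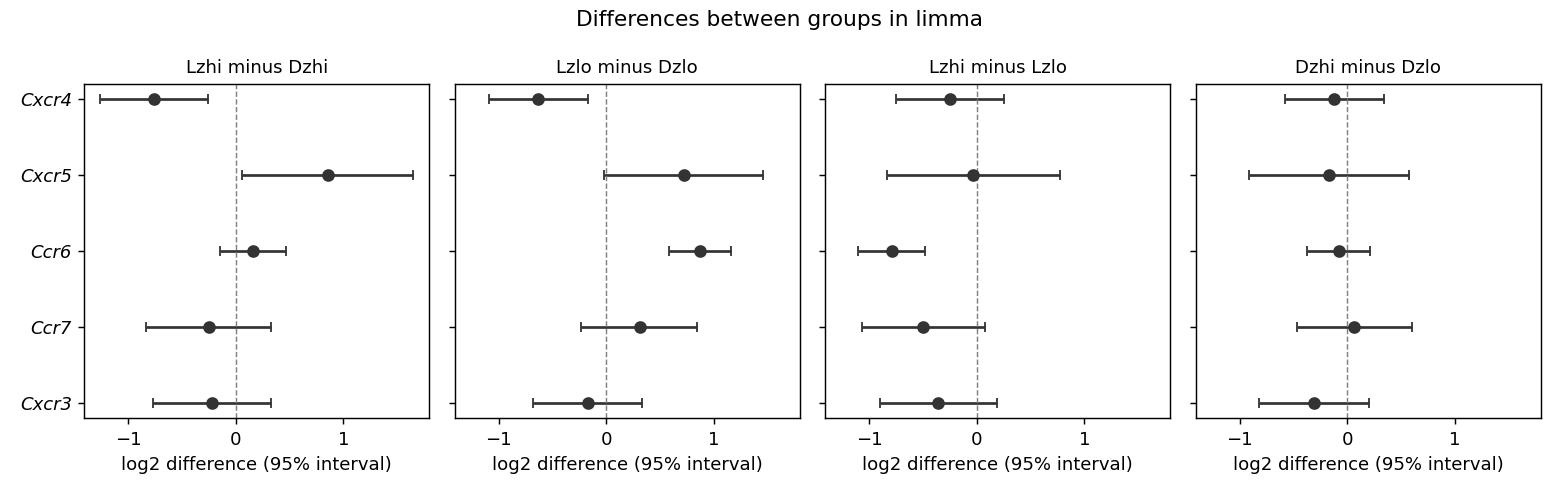
Differences of the 5 receptors on the log2 scale between pairs of groups in limma, with points for the estimate and bars for its 95% interval. The interval of Ccr6 lies above 0 for Lzlo minus Dzlo, at 0.58 to 1.16, and below 0 for Lzhi minus Lzlo, at -1.10 to -0.48. That of Cxcr5 lies above 0 for Lzhi minus Dzhi, at 0.06 to 1.65. The intervals are not adjusted for the number of genes, and none of these differences passed in this fit. The zone difference of Cxcr4 was set by the sort.

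The genes most like each receptor over the 15 arrays were ranked by Pearson correlation, which describes these arrays and includes what arrays of a group or an experiment share. For Cxcr4 they were Ctse, encoding cathepsin E (r = 0.92), Arhgap8 (0.911) and Anxa2, encoding annexin A2 (0.909). For Cxcr5 they were Pacsin1 (r = 0.913), Ctsh, encoding cathepsin H (0.912), and the transcription factor gene Nfe2l1 (0.893). For Ccr6 they were Ppl, encoding periplakin (r = 0.877), Abcg1, a sterol exporter gene (0.854), and Gatd3a (0.835). Abcg1 averaged 5.97 in Lzhi and 6.60 in Lzlo arrays, and 6.00 in Dzhi and 6.03 in Dzlo arrays. That Lzlo was its highest group follows from its selection by correlation with Ccr6 and is no separate result. For Ccr7 they were Trf, encoding transferrin (r = 0.939), Rfx1 (0.921) and Wfdc17 (0.92). Ccr7 had its highest value on Lzlo replicate 3, at 7.18, and its correlations without that array were not computed. Of these, Wfdc17 averaged 4.08 in Lzhi and 6.02 in Lzlo arrays, with an unadjusted p of 0.118 in limma. For Cxcr3 they were Cxxc5 (r = 0.917), Fam78a (0.858) and Arf2 (0.851).

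Other genes of the pathway were read from lists. Between zones 0.155% of all genes passed in limma, and 0.451% with the experiment block, so that lists of this size would hold few or no such genes at that share. Of 18 other chemokine receptors, 0 passed in limma, with 9 above 0 and a median of 0.02. Over all genes 48.0% lay above 0, with a median of -0.005. The gene with the smallest p-value was Ackr4, which encodes a scavenging receptor for the CCR7 ligands CCL19 and CCL21. It averaged 7.36 in Lzhi and 7.94 in Dzhi arrays, and 6.90 in Lzlo and 7.79 in Dzlo arrays, a difference of -0.74 ± 0.16 (adjusted p = 0.138 in limma). With the experiment block its adjusted p in limma was 0.0274, and over 30 alternatives it lay between 0.0183 and 0.874, with 4 passing. Of 7 ligand genes of the 5 receptors, which stromal and other cells mostly make, 0 passed, with a median of 0.0. Of 11 other positioning receptors, 1 passed, beside the 0.155% of all genes. It was S1pr3, a sphingosine phosphate receptor gene, which rose by 1.23 ± 0.16 in light zone cells (adjusted p = 0.00476 in limma). Over 30 alternatives its adjusted p lay between 0.00223 and 0.232, and it missed the threshold only without experiment B. That list had 7 above 0 and a median of 0.24, and Cnr2, the cannabinoid receptor gene of B cells, had 0.60 ± 0.17 (adjusted p = 0.337 in limma). Of 39 genes of receptor signalling and desensitisation, 0 passed between zones, beside the same 0.155%, with a median of 0.02.

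By affinity in the light zone, 0 genes of these lists passed in limma, as 0.0% of all genes did. Of the 11 other positioning receptors, 9 lay below 0, and their median was -0.43, or -0.37 without Lzlo replicate 3. Cnr2 was lowest in p among them, averaging 6.73 in Lzhi and 7.68 in Lzlo arrays (-0.94 ± 0.24, unadjusted p = 0.00168). Of the 39 signalling genes, 29 lay below 0, and their median was -0.18, or -0.15 without that array. Among them Pik3cg, a kinase gene downstream of chemokine receptors, averaged 8.85 in Lzhi and 9.42 in Lzlo arrays (-0.58 ± 0.16, unadjusted p = 0.00281). Ptk2b, encoding the kinase PYK2, averaged 9.53 in Lzhi and 10.07 in Lzlo arrays (-0.54 ± 0.16, unadjusted p = 0.00543). Over all genes 49.9% lay above 0, and the median was -0.0, or 0.024 without Lzlo replicate 3. The other chemokine receptors had a median of -0.06, with 6 of 18 above 0. In the dark zone 0 genes of these lists passed in limma, where 0.0% of all genes passed and 1.6% had an unadjusted p under 0.05. There 16 of the 18 other chemokine receptors lay above 0 (median 0.10), beside 50.4% of all genes. Their mean was 5.01 to 5.16 in Dzhi and 4.8 to 5.15 in Dzlo arrays, below the medians of the arrays. In that range RMA compresses differences, and the cause of the shared direction was not tested. The positioning receptors had a median of -0.02 and the signalling genes had -0.07, beside 0.001 over all genes.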

How the data were processed

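Sorted cells were profiled on 15 whole-transcript arrays, 1 sample each, after amplification of the RNA, per the labels' protocols. The single deposited table gives log2 values of 28853 probe sets. RMA (background correction, quantile normalization, probe summary) and build mm8 are named by the submitters' processing notes. The software is not given in the sources used here. Amplification adds spread, and the number of arrays limits precision.

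Groups and replicate numbers came from the titles. Probe sets with exactly 1 symbol were kept (21789, against 1621 with several and 5443 with none), and of 999 genes with more than 1 the highest mean was used, leaving 19938 genes. Limma 3.58.1 in R 4.3.3 (lmFit, eBayes) fitted 4 group means with 11 residual degrees of freedom. The members, lists, motifs and tests were chosen with earlier results of these data known. The named genes are the 5 members, the 3 genes most correlated with each, without predicted genes, olfactory receptors, small RNAs and antigen receptor segments, and genes with the lowest p per list. The lists of positioning receptors and of naive and memory markers share S1pr1 and Gpr183. The fit was tested on simulated data with independent arrays and no experiment effect. That test does not cover what arrays of the same experiment share.

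Arrays of different groups with the same experiment code deviated together (mean correlation 0.288 over 21 pairs, 16 above 0.1, against -0.082 over 63 pairs of different codes). For the same title number it was 0.227. The titles of Dzhi replicates 3 and 4 cross the code. Alternatives changed normalization, filter, probe set rule, rows tested, variance model, array weights, block and arrays. Those leaving out experiment B, experiment D or the low-affinity arrays of D, and lists without Lzlo replicate 3 were added after seeing the data. Figures were drawn with matplotlib 3.10.9.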

Additional observations from a re-analysis of the deposited data

How the results depend on the processing

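Of 1070 member values under an alternative, 1011 kept their direction and their side of the threshold, 21 newly passed and 38 changed sign. Part of the 1011 was fixed by design. An array left out of a group outside the comparison leaves the estimate as it was. So does the variance model, and so do the probe set rule and the rows tested, since each receptor has 1 probe set. The count is therefore no measure of robustness. No alternative made a member pass for affinity or the interaction. Between zones over both affinities 0 receptors passed in limma, and 1 (Ccr6) passed with arrays centred on their median (0.52), quantile normalization (0.53), a variance trend (0.52), array weights (0.50, a fit that stopped before full convergence) or the title number as a block (0.52). With the merged experiment code as a fixed or random block 2 passed, Ccr6 (0.53 and 0.52) and the sort marker Cxcr4 (-0.69 in both). Among low-affinity cells Ccr6 passed, as 1 receptor, with centring (0.86), quantile normalization (0.87), mean probe sets (0.87), trend (0.87), weights (0.86), the title number block (0.87), the merged code as a fixed or random block (0.87 in both) and the code as written (0.90). The experiment block changed no other call of a receptor.

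Values near 0 changed sign. Ccr7 between zones was -0.01 with the low-affinity arrays of D left out and -0.0 without experiment D, and ran from -0.10 to 0.12 when single arrays were left out. Cxcr4 by affinity in the dark zone was 0.01 and 0.04 without the same arrays, Ccr6 there was 0.02 without experiment B, and Cxcr5 by affinity in the light zone was 0.01 with the title number block. The interaction of Cxcr3 was 0.09 with array weights. With single arrays left out, the zone value of Cxcr3 ran from -0.48 to 0.03 among high-affinity and -0.27 to 0.03 among low-affinity cells. Affinity in the light zone ran from -0.32 to 0.17 for Cxcr5. In the dark zone it ran from -0.31 to 0.01 for Cxcr4, -0.43 to 0.07 for Cxcr5, -0.19 to 0.01 for Ccr6 and -0.06 to 0.23 for Ccr7. Over both zones Cxcr5 ran from -0.25 to 0.02, and the interaction from -0.27 to 0.06 for Cxcr4, -0.15 to 0.40 for Cxcr5 and -0.30 to 0.20 for Cxcr3. Ccr6 ran from 0.46 to 0.56 between zones and 0.76 to 0.97 among low-affinity cells, and the count of receptors from 0 to 1 in both.

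Over all genes 31 passed between zones, with 49 under quantile normalization, 68 with weights, 83 with the title number block, 90 and 78 with the merged code as a fixed and random block, 0 without experiment B, and 18 to 37 without single arrays. Among high-affinity cells 3 passed, with 5 under quantile normalization or weights, 7 over all probe sets or with the title number block, 11 and 6 with the merged code, 1 with the code as written or only the groups compared, 5 and 6 without the low-affinity arrays of D or all of D, 0 without B, and 1 to 4 without single arrays. Among low-affinity cells 2 passed, with 11 under quantile normalization or with the code as written, 8 with mean probe sets, 1 over all probe sets, 16 with weights, 18 with the title number or random block, 30 with the merged code, 0 with only the groups compared or without B, 4 without D, and 0 to 4 without single arrays. By affinity in the dark zone 0 passed (1 under quantile normalization, 3 over all probe sets). Over both zones 0 passed (2 under quantile normalization, 1 with weights, the title number block or without the low-affinity arrays of D). Fits without experiment D or B have fewer arrays. For the other differences the cause was not tested. Comparisons that use all 4 groups have no fit of only the groups compared.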
